A study of Macaca mulatta with 6 samples.

Results

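The genes of the cell cycle and of DNA replication were followed in the retinas of 3 adult male rhesus macaques, 24 h after 1 intraorbital optic nerve of each monkey was irradiated with the gamma knife. Of 43 such genes, 31 had a probe set that carried their symbol and no other, out of 14132 named genes on the array. These 31 genes held 59 of its 52024 probe sets. Members were found by symbol, after platform symbols were updated by gene identifier, and CDC2 was counted as CDK1, its present name. Probe sets with more than 1 symbol in the platform annotation were given no gene. Where a gene had several probe sets, the brightest (highest mean over the 6 arrays) stood for it, and the dimmer ones are described separately. No probe set with 1 symbol carried that of CCND2, CDKN1C, MCM6, MCM7, RRM2, TK1, CDC20, PLK1, BUB1, BUB1B, TTK or BIRC5. These 12 genes were not analysed here.

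The treated retinas (3 arrays) lay on the side of the nerve that received 15 Gy, and the control retinas (3 arrays) were the contralateral retinas of the same monkeys. By the study's account both eyeballs also received a low dose, larger on the treated side, so the control retinas were not free of radiation and a direct effect on the retina cannot be told apart from an effect of the nerve injury. RNA came from the temporal part of the whole retina without the pigment epithelium, 1 array per retina, and values are log2 MAS 5.0 signals, on which a difference of 1 is a doubling. In bulk tissue, fewer cells of a type and less RNA per cell cannot be told apart. The median log2 signal lay between 6.44 and 7.03 on the 6 arrays, and from 22.6% to 29.7% of probe sets had a log2 signal under 5, where MAS 5.0 values scatter widely. The tissue label was borne out by photoreceptor genes, of which all 7 measured (among them SAG, GNAT1, NRL and ARR3) had a mean signal above the median of all probe sets, 6.69.

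A dividing cell enters the cycle in G1, when D-type cyclins with CDK4 or CDK6 release E2F factors from the retinoblastoma protein, and cyclin E with CDK2 then commits it to DNA synthesis. Replication origins are loaded with the MCM helicase by CDC6, the clamp PCNA holds the polymerases on DNA, and ribonucleotide reductase and thymidylate synthase supply the nucleotides. Cyclins A and B with CDK1, the Aurora kinases and the spindle checkpoint then drive mitosis. Nearly all cells of the adult primate retina are neurons and glia that have left the cycle, while many of these genes also serve DNA repair, transcription or differentiated functions.

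TYMS, the gene of thymidylate synthase, which makes the thymidylate needed for DNA, stood apart from the other members. Its brightest probe set read 5.97, 6.18 and 6.10 in the control retinas of replicates 1 to 3, and 7.84, 8.30 and 8.13 in the treated retinas (log2 signal). Every treated retina lay above every control retina, and the 3 pairs differed by 1.87, 2.12 and 2.03. The means were 6.08 ± 0.10 (SD, 3 retinas) and 8.09 ± 0.23 (SD, 3 retinas). The log2 fold change was 2.01 (SE 0.26, 95% interval 1.39 to 2.62), a 4.02-fold difference, and its adjusted p of 0.0588 from limma narrowly missed the threshold of 0.05. The methods' paired t-test gave 0.00137 unadjusted and 0.817 after adjustment. The adjusted limma p passed the threshold with quantile normalization (0.0468), with arrays centred on their medians (0.0241), among probe sets with a mean log2 signal of at least 5 (0.0419) and without replicate 2 (0.0251), and over all alternatives that kept this probe set the adjusted p ran from 0.0241 to 0.854, with the log2 fold change between 1.95 and 2.10.

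The other probe sets of TYMS did not give 1 answer. One read 6.13, 6.47 and 5.41 in control retinas and 7.83, 7.29 and 7.41 in treated retinas, again without overlap, and differed by 1.50 on average (SE 0.35, limma adjusted p = 0.464). The dimmest read 5.88, 1.40 and 5.50 in control retinas and 5.40, 1.93 and 4.75 in treated retinas, and differed by −0.23 (SE 0.73, limma adjusted p = 0.959). It was low in both retinas of replicate 2, and its 95% interval of −1.94 to 1.48 did not reach the fold change of the brightest probe set. With the 3 probe sets averaged, TYMS stood at 1.09 (SE 0.34, adjusted p = 0.534). ENOSF1, which lies next to TYMS in the reference gene table, stood at 0.14 (SE 0.19, adjusted p = 0.894).

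**Figure D1:**
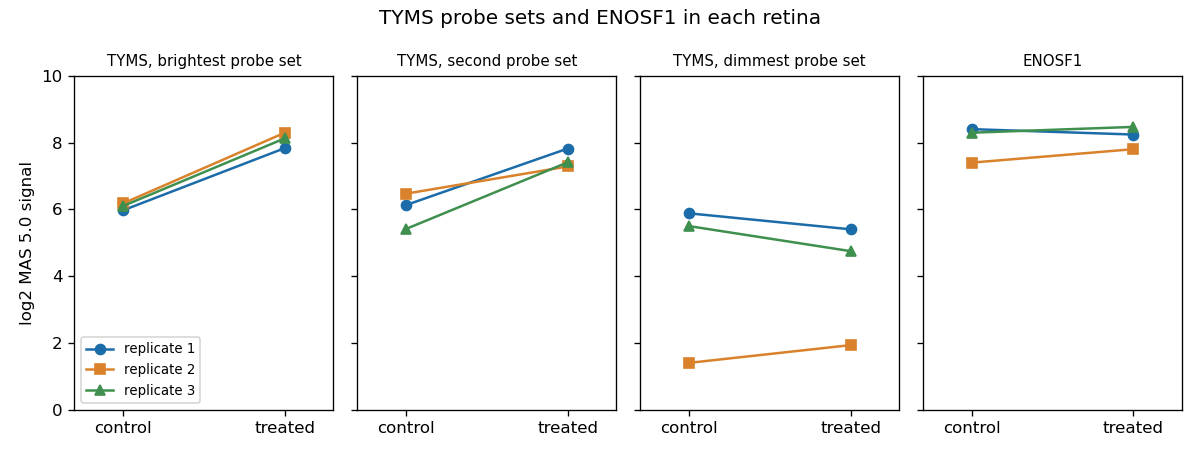
Log2 MAS 5.0 signal (vertical axis) of the 3 TYMS probe sets and of ENOSF1 in control and treated retinas (horizontal axis), with a line joining both retinas of each replicate number. The brightest TYMS probe set lies between 5.97 and 6.18 in control retinas and between 7.84 and 8.30 in treated retinas, while the dimmest one separates replicate 2 from the others in both retinas.

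Markers of microglia and blood leukocytes, cell types that can divide, stood mostly above 0, although none passed after adjustment. Of 11 measured markers, 9 had a log2 fold change above 0, against 55.5% of named genes, 7 were higher at an unadjusted p under 0.05 in limma, against 5.02%, and 2 by the methods' t-test, against 4.21%. The other 2 markers were ITGAM, an integrin of myeloid cells, at −0.43 and lower in each pair, and CD68, a lysosomal protein of macrophages, at −0.19. Their median was 0.62, and their summed linear signal ran from 4495 to 5842 in control retinas and from 6959 to 14932 in treated retinas. LYZ, lysozyme, held most of the widening: without it the sums ran from 2408 to 2716 and from 3062 to 3338. No marker was at 0 on any array, and the T cell markers CD3D and CD3E were not measured. The part of these cells in the TYMS difference was not tested.

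Over all 31 measured members, 0 passed limma after adjustment, where 0.111% of all probe sets did. At an unadjusted p under 0.05, limma gave 2 higher (TYMS and MCM3), against 5.02% of named genes, and 0 lower, against 3.01%. The methods' t-test gave 2 higher at an unadjusted p under 0.05 (TYMS and PCNA), against 4.21% of named genes, and 1 lower (CCNB2), against 2.84%, and none after adjustment. Differences in 1 direction in 3 of 3 pairs were seen in 7 members that were higher and 4 that were lower, where 19.3% and 13.6% of named genes did the same. Treated and control retinas did not overlap for 1 higher member (TYMS) and 1 lower member (AURKB), against 4.30% and 2.70% of named genes. These counts lay near the background shares. A larger share of members stood above 0, 24 of 31 against 55.5% of named genes, but centring the arrays on their medians moved these to 26 of 31 and 69.5%, and no test was made of it. The median log2 fold change of the members was 0.12 (0.11 without TYMS), beside 0.032 over named genes and −0.038 over all probe sets, and in the 3 pairs it was 0.12, 0.23 and 0.0055.

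**Figure D2:**
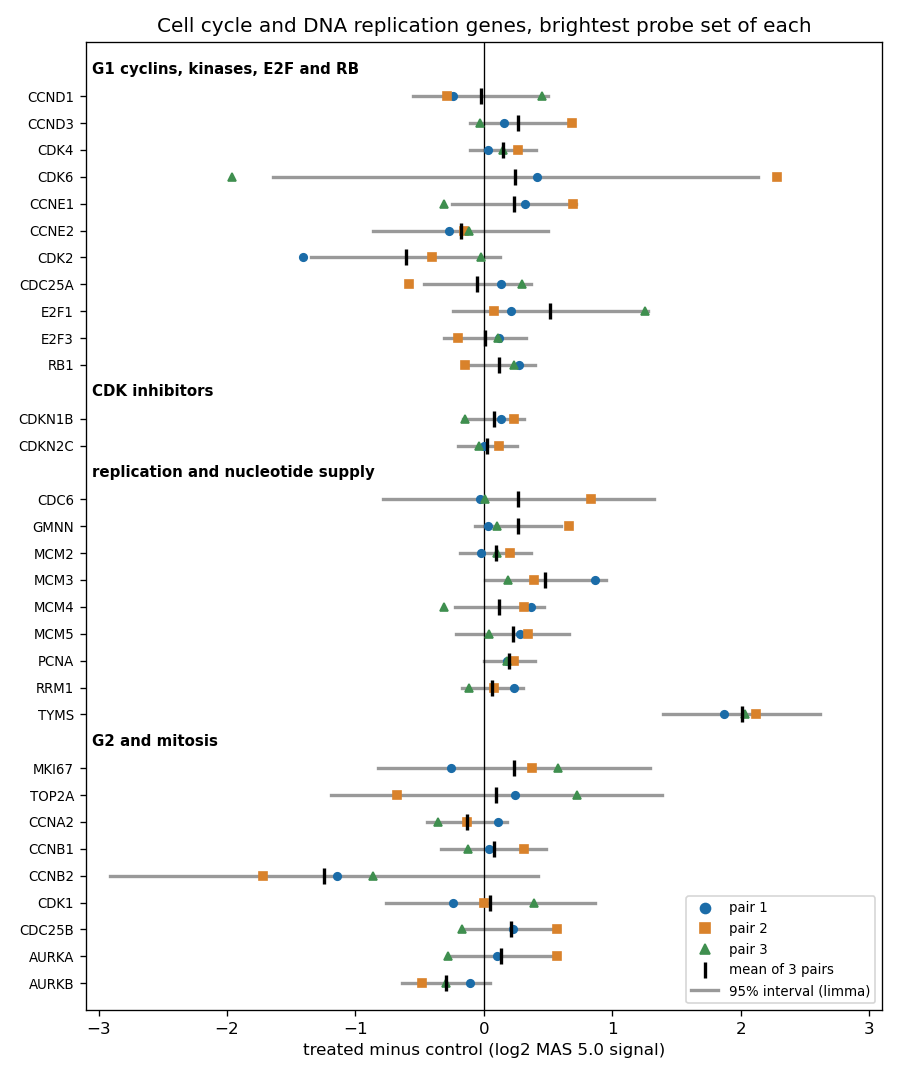
Treated minus control difference in log2 MAS 5.0 signal (horizontal axis) for the brightest probe set of each of the 31 measured members (rows, grouped by role). Points are the 3 pairs, black ticks their mean and grey bars the 95% interval from limma. TYMS lies far to the right in every pair, most members lie within 0.5 of 0, and CDK6, CCNB2, TOP2A and MKI67 have wide intervals.

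The intervals say how much change these arrays could have missed. On the brightest probe set, the 95% interval of 23 of 31 members, against 65.0% of named genes, lay within a log2 of 1 on both sides. A doubling or halving thus lay outside it. The others were TYMS and CDK6, CDK2, E2F1, CDC6, MKI67, TOP2A and CCNB2. Among the 23, dimmer probe sets of MCM5 and RRM1 had wider intervals, −1.92 to 0.32 and −1.63 to 0.49, which held a halving. Dimmer probe sets of CDK1, CCNE2, E2F3, MCM4, AURKA and AURKB also had intervals that passed a log2 of 1 on at least 1 side. Among these were −0.56 to 1.51 for E2F3, −0.77 to 1.28 for CCNE2 and −0.42 to 1.07 for AURKA. For these genes the bound thus holds for the brightest probe set only. Of the 31, 25 had a mean signal above the median of all probe sets, with a median SE of 0.16, and the 6 below it had a median SE of 0.50. A change of the dimmer genes, which include the usual markers of dividing cells, was thus less easily detected.

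Among the genes of replication and nucleotide supply, all 9 measured members stood above 0 in log2 fold change (median 0.22), as they also did after quantile normalization and after centring, and 5 of them were higher in 3 of 3 pairs, where 55.5% and 19.3% of named genes did so. With the probe sets of a gene averaged, MCM4, MCM5 and RRM1 stood below 0. Of these 9, 2 were higher at an unadjusted p under 0.05 in limma, against 5.02% of named genes, and 0 passed after adjustment. MCM3, a subunit of the replicative helicase, read 7.41, 8.26 and 7.79 in control retinas and 8.27, 8.65 and 7.98 in treated retinas. It was higher in each pair, by 0.86, 0.39 and 0.19, but the groups overlapped, and its log2 fold change was 0.48 (SE 0.20, unadjusted p = 0.0469, adjusted p = 0.736 from limma). PCNA, the sliding clamp, which also serves DNA repair and is a known p53 target, read 12.49, 12.81 and 12.44 in control retinas and 12.66, 13.05 and 12.62 in treated retinas. Its 3 pairs were close to each other, at 0.18, 0.23 and 0.18, which gave a log2 fold change of 0.20 (SE 0.085, unadjusted p = 0.0502, adjusted p = 0.743 from limma). The spread between replicate numbers was larger than the difference between the groups.

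None of the remaining replication genes had an unadjusted p under 0.05. GMNN, geminin, which blocks a repeat of origin loading, stood at 0.26 (SE 0.14, adjusted p = 0.752 from limma), of which replicate 2 gave 0.66 and the others 0.031 and 0.10. CDC6, the loader of the helicase, stood at 0.27 with an SE of 0.45. Its control replicate 2 read 5.20 and the other 5 retinas between 6.03 and 6.08. The helicase subunits MCM2, MCM4 and MCM5 stood at 0.092, 0.12 and 0.22. RRM1, the large subunit of ribonucleotide reductase, which supplies deoxynucleotides in resting cells as well, stood at 0.066 (95% interval −0.17 to 0.30).

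The 11 measured members of the G1 machinery had log2 fold changes from −0.61 to 0.52, with a median of 0.12, 7 above 0, and 0 at an unadjusted p under 0.05. The D-type cyclins CCND1 and CCND3 stood at −0.026 (pairs −0.24, −0.29 and 0.45) and 0.27 (pairs 0.16, 0.68 and −0.032). CCND1 stood at 0.071 after centring and 0.026 after quantile normalization, so its sign depended on the scaling. Their partner CDK4 stood at 0.15 (SE 0.11), and CDK6, read with a dim probe set, at 0.25 with an SE of 0.81, its pairs running from −1.96 to 2.28. CCNE1 and CCNE2, the E-type cyclins, stood at 0.23 and −0.18. E2F1, an activator of S phase genes, stood at 0.52 (SE 0.33), most of it from replicate 3, whose pair differed by 1.26 where the others differed by 0.21 and 0.081. E2F3 stood at 0.0087, RB1, the retinoblastoma protein gene, at 0.12, and CDC25A, a phosphatase that activates CDK2, at −0.050, which became 0.047 after centring. The inhibitors that hold cells out of the cycle were measured with small errors: CDKN1B, the p27 gene, stood at 0.075 (95% interval −0.16 to 0.31) and CDKN2C, the p18 gene, at 0.027 (95% interval −0.20 to 0.26).

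CDK2, the kinase of S phase entry, differed between replicate numbers, read here as monkeys, far more than between the 2 retinas of a number. The sample titles name no monkey, so the step from numbers to monkeys is not shown by them. Its brightest probe set read 4.91 and 3.50 in the control and treated retina of replicate 1, 9.03 and 8.63 in replicate 2, and 8.94 and 8.92 in replicate 3. Both retinas of replicate 1 thus lay more than 3 below the other 4 retinas on the log2 scale. The second probe set of CDK2 also had replicate 1 lowest, with a smaller gap. It read 5.88 and 5.56 in replicate 1, 7.89 and 7.11 in replicate 2, and 7.43 and 7.51 in replicate 3. The means of the 2 retinas ranged over 4.72 between monkeys, and the F test of the replicate numbers in the limma fit, which was chosen after these values were seen, gave an adjusted p of 0.00149 for the brightest probe set and 0.0284 for the second. Treated against control, CDK2 stood at −0.61 (SE 0.32, adjusted p = 0.752 from limma), with pairs of −1.40, −0.40 and −0.022.

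The same F test gave 1 more member, CDK4, at an adjusted p of 0.0455. Thus 2 of 31 members differed between replicate numbers, against 16.3% of named genes. CDK4 read 9.48 and 9.51 in the retinas of replicate 1, 9.99 and 10.25 in replicate 2, and 9.85 and 9.998 in replicate 3. Among the dimmer probe sets of members, 1 each of RB1, CDC25A and TYMS also passed, beside that of CDK2. Both retinas of replicate 1 were high on that of RB1, at 8.62 and 8.51 against 6.50 to 6.91 in the others. They were low on that of CDC25A, at 6.21 and 6.91 against 7.92 to 8.44. The count of members without replicate 1 was 0, without replicate 2 it was 8 and without replicate 3 it was 4, and it was 0 where the variance prior was constant over signal.

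**Figure D3:**
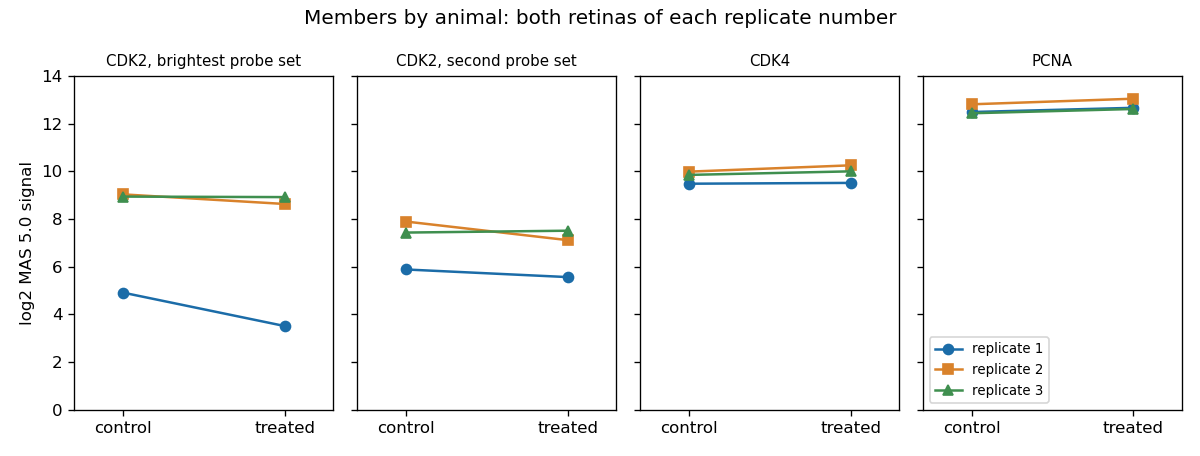
Log2 MAS 5.0 signal (vertical axis) of the CDK2 probe sets, CDK4 and PCNA in control and treated retinas (horizontal axis), with a line joining both retinas of each replicate number. On both CDK2 probe sets the retinas of replicate 1 lie below those of replicates 2 and 3, and the lines of PCNA run nearly parallel.

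The 9 measured members of G2 and mitosis had a median log2 fold change of 0.075, with 6 above 0, 3 below and 0 at an unadjusted p under 0.05 in limma. MKI67, the gene of the Ki-67 antigen of dividing cells, read 6.29, 5.44 and 5.52 in control retinas and 6.03, 5.82 and 6.10 in treated retinas, which overlapped. Its log2 fold change was 0.23 (SE 0.45, 95% interval −0.83 to 1.29). TOP2A, the topoisomerase that untangles chromosomes in dividing cells, read 4.65, 6.27 and 5.22 in control retinas and 4.90, 5.59 and 5.94 in treated retinas. Its pairs had mixed signs, and the log2 fold change was 0.098 (SE 0.55). CDK1, the mitotic kinase, stood at 0.050 (SE 0.35), and the cyclins CCNA2 and CCNB1 at −0.13 and 0.075.

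CCNB2, a B-type cyclin, had the largest difference downward among the members. It read 4.14, 4.66 and 5.56 in control retinas and 2.997, 2.93 and 4.70 in treated retinas, at signals where MAS 5.0 scatters. Each pair was lower, by −1.14, −1.72 and −0.86, but the groups overlapped, and the log2 fold change was −1.24 (SE 0.72, unadjusted p = 0.123, adjusted p = 0.754 from limma). A variance prior constant over signal, which gives dim probe sets no wider error, put its unadjusted p at 0.0113. AURKB, the Aurora kinase of chromosome segregation and cytokinesis, read 8.76, 9.20 and 8.78 in control retinas and 8.66, 8.72 and 8.49 in treated retinas. Its groups did not overlap on this probe set, although the gap was small, and the log2 fold change was −0.29 (SE 0.15, adjusted p = 0.752). On its dim second probe set the groups did not overlap either, but the treated retinas were higher (0.92, SE 0.90, adjusted p = 0.839 from limma). AURKA, the Aurora kinase of the spindle poles, and CDC25B, a phosphatase that activates CDK1, stood at 0.13 and 0.21.

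Several probe sets were present for 19 of the 31 members, and in 12 of these they disagreed, in that a dimmer one had the opposite sign or lay more than 1 from the brightest on the log2 scale. Of the 28 dimmer probe sets, 13 had the opposite sign, and 10 had a mean log2 signal under 5. For MCM5 the brightest probe set gave 0.22 (SE 0.19) and the other −0.80 (SE 0.48), lower in each pair. AURKB stood at 0.92 by a probe set that read 1.34 to 3.46 on every array. CDK1, at 0.050 on its brightest probe set, had 1.39 (SE 0.95) on its dimmest, which read 1.23 in control replicate 3 and at least 4.91 in the other retinas. The others with disagreeing probe sets were RRM1 (−0.57), E2F1 (0.55 and −0.48), CDK6 (−0.68), CCNE2 (0.26), RB1 (0.087 and −0.13), CDC25A (−0.19 and 0.31), MCM4 (0.30, −0.35 and −0.46), MKI67 (−0.53 and −0.31) and TYMS, with the log2 fold changes of their dimmer probe sets given. Probe sets of AURKA (0.13, 0.26 and 0.32), CCNA2 (−0.13 and −0.12) and CCNB1 (0.075 and 0.17) lay close to each other. Those of E2F3 (0.0087 and 0.48), TOP2A (0.098 and 0.58), CDC6 (0.27 and 0.54) and CDK2 (−0.61 and −0.34) had the same sign but lay further apart. The dimmer ones of TOP2A and CDC6 had a mean log2 signal under 5. Of the 59 member probe sets, 3 had an unadjusted p under 0.05 in limma, those of MCM3 and 2 of TYMS.

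**Figure D4:**
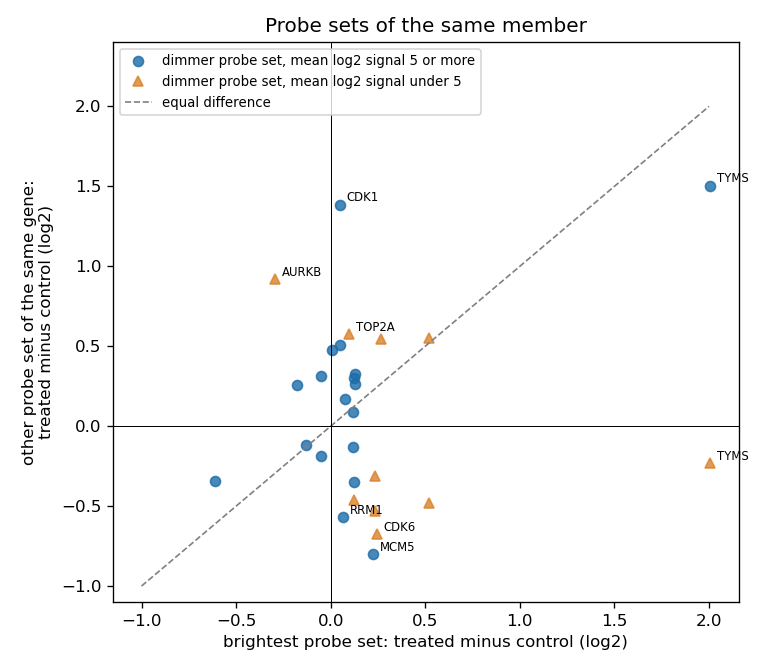
Treated minus control difference in log2 MAS 5.0 signal of the brightest probe set of a member (horizontal axis) against that of each of its dimmer probe sets (vertical axis), 28 points in all. Triangles are dimmer probe sets with a mean log2 signal under 5 and the dashed line marks equal differences. Of the 2 TYMS points, 1 lies at 1.50 and the other at −0.23.

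Other genes of the same pathways, were taken from lists drawn up beside the members, and their counts are set against the same shares of named genes. Of 23 further genes of G1 and RB control, 16 stood above 0 (median 0.13), against 55.5% of named genes, limma gave 2 higher and 0 lower ones at an unadjusted p under 0.05, against 5.02% and 3.01%, and 0 passed after adjustment. The 2 were CCNG1 and CDKN1A, both known p53 targets. CCNG1, cyclin G1, read 12.02, 12.03 and 11.87 in control retinas and 12.45, 12.68 and 12.17 in treated retinas, without overlap (0.46, SE 0.099, unadjusted p = 0.00193, adjusted p = 0.391 from limma). CDKN1A, the p21 inhibitor of cyclin-dependent kinases, read 9.65, 9.67 and 8.93 in control retinas and 10.05, 10.04 and 9.36 in treated retinas (0.40, SE 0.11, unadjusted p = 0.00760, adjusted p = 0.605 from limma). Its pairs, at 0.40, 0.37 and 0.42, were close to each other, while the groups overlapped. CDKN2D, the p19 gene of the same inhibitor family as CDKN2C, stood at 0.23 (SE 0.10, adjusted p = 0.751).

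Of 29 further genes of the replication origin and fork, 16 stood above 0 (median 0.014), limma gave 2 higher and 0 lower ones at an unadjusted p under 0.05, and 0 passed after adjustment. These counts lay near the shares of named genes, 55.5%, 5.02% and 3.01%. POLA2, a subunit of the polymerase that starts DNA chains, stood at 0.59 (SE 0.25, adjusted p = 0.736), RFC2, of the loader of PCNA, at 0.52 (SE 0.23, adjusted p = 0.745) and RPA3, of the protein that binds single-stranded DNA, at 0.23 (SE 0.13, adjusted p = 0.754). The other of the 2 was UHRF1, which maintains DNA methylation after replication, named after its values were seen. It read 2.17, 4.19 and 5.16 in control retinas and 5.34, 5.65 and 5.99 in treated retinas, at dim signals (1.82, SE 0.72, adjusted p = 0.734 from limma).

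Of 33 further genes of the spindle, kinetochore and cytokinesis, 19 stood above 0 (median 0.049), limma gave 3 higher and 1 lower one at an unadjusted p under 0.05, against 5.02% and 3.01% of named genes (55.5% of which stood above 0), and 0 passed after adjustment. The lower one was ECT2, an exchange factor of cytokinesis, which read 11.68, 11.51 and 11.36 in control retinas and 11.39, 11.05 and 10.91 in treated retinas with overlap between the groups although each pair was lower (−0.40, SE 0.092, unadjusted p = 0.00282, adjusted p = 0.441). The higher ones were DLGAP5, a spindle protein (0.36, SE 0.12, adjusted p = 0.676), and MELK and SPC25, named after their values were seen, at 2.29 (SE 0.77, adjusted p = 0.693) and 2.20 (SE 0.89, adjusted p = 0.734). MELK, a kinase of dividing cells, and SPC25, of the kinetochore, were dim: control retinas read 1.69, 2.97 and 5.25 for MELK and 2.71, 1.02 and 0.89 for SPC25, where the order of MAS 5.0 values carries little weight. SMC2, of the condensin complex, stood at 0.32 (SE 0.21, adjusted p = 0.769).

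**Figure D5:**
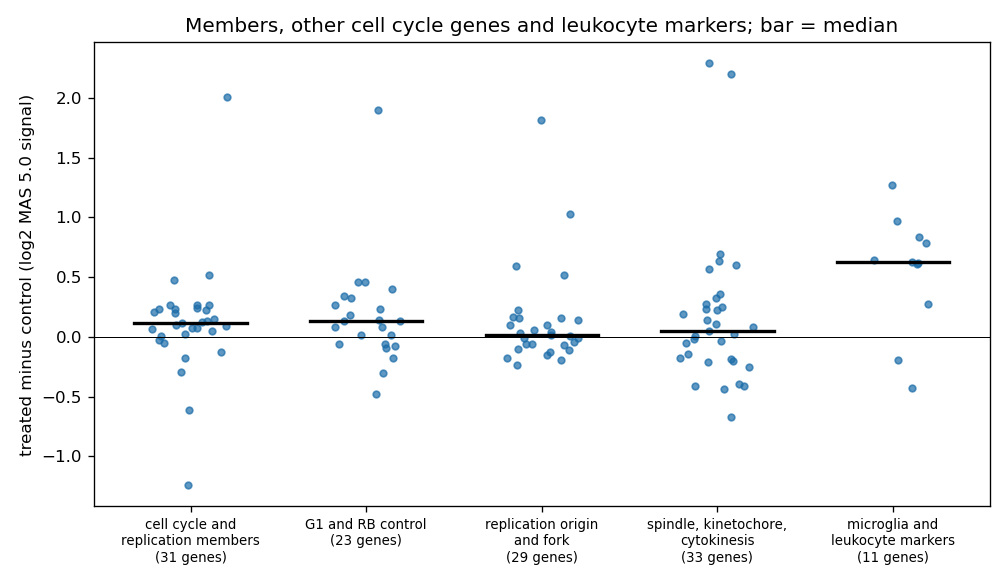
Treated minus control difference in log2 MAS 5.0 signal (vertical axis) of the brightest probe set of each gene (points) in the members, in the 3 further lists of cell cycle genes and in the markers of microglia and leukocytes (horizontal axis); bars are medians. The medians of the cell cycle groups lie between 0.014 and 0.13 and that of the leukocyte markers at 0.62.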

How the data were processed

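The authors extracted RNA from 6 retinas, labelled it with a 3′ kit and hybridized each to an Affymetrix Rhesus Macaque Genome Array. They deposited log2 values of the MAS 5.0 signal, normalized with the GeneSpring software. No source used here gives the MAS5 version. The number of arrays limits the precision.

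Treated and control retinas of the same number were paired, since the methods compare both retinas of a monkey. The sample titles give replicate numbers and name no monkey. Deviations from the group means of same-numbered arrays correlated at 0.357, 0.137 and 0.161. Those of different-numbered arrays ran from −0.243 to 0.104. The 0.104, of control 3 with treated 2, was near the value of pair 2, so the match of numbers to monkeys is less clear for replicates 2 and 3. All 52024 probe sets entered a single limma fit (version 3.58.1, R 4.3.3; eBayes with trend, replicate block, Benjamini-Hochberg over all probe sets), without filter or further normalization. Differences between monkeys were tested by the F test of the block. The scripts were tested on simulated data.

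In the platform annotation 24956 probe sets had 1 symbol, 361 had more than 1 and 26707 had none; 98.6% of those with 1 symbol were found by gene identifier in the gene table of assembly T2T-MMU8v2.0, which updated the names. No sequence or position is given, and promoter motifs were not analysed here. Members, lists and tests were chosen with earlier results of these data known. Named with values were members with an unadjusted p under 0.05, a signal above the median or disagreeing probe sets, TYMS, and the 3 genes of smallest p and above-median signal in each further list; dimmer members are given for completeness. Endothelial, Müller glia and pigment cell markers were listed too: of 5, 7 and 6 measured, 0, 2 and 0 were higher and 1, 2 and 0 lower at an unadjusted p under 0.05 in limma. Of the 7 photoreceptor markers, 0 were higher and 2 lower. None of these 7 stood above 0 (median −0.17), against 55.5% of named genes, and 6 were lower in 3 of 3 pairs, against 13.6%. Figures were drawn with matplotlib 3.10.9.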

Additional observations from a re-analysis of the deposited data

How the results depend on the processing

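Without the pairing (no replicate block), 1 member was higher at an unadjusted p under 0.05, and TYMS had an adjusted p of 0.449. Members called after adjustment numbered 1, TYMS, with quantile normalization, with centred arrays (1) and with probe sets of mean log2 signal at least 5 (1, where CCNB2 was left out), and from 0 to 1 without 1 replicate. Members higher at an unadjusted p under 0.05 numbered 1 with a variance prior without a trend and from 1 to 6 without 1 replicate, the 6 (TYMS, MCM3, MCM4, CCND3, CCNE1 and CDC25B) without replicate 3. CCNB2 was the 1 lower member with that prior and by the methods' t-test. Differences between monkeys were called for 4 members with quantile normalization, 5 with centring, 0 with that prior, 0 with signals under 5 set to 5, and from 0 to 8 without 1 replicate. The median of the members stayed between 0.059 and 0.15 without 1 replicate.

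For G1 and RB control, genes higher at an unadjusted p under 0.05 numbered 1 without the block, 4 with quantile normalization, 5 with centring, 0 without the trend, 4 with the floor of 5, 4 by the t-test and from 1 to 5 without 1 replicate; the median was 0.23 with centring and 0.018 with probe sets averaged. For the replication origin and fork they numbered 0, 1, 1, 1 and 0 without the block, without the trend, with the filter, with the floor and by the t-test, and from 0 to 2 without 1 replicate; 1 was lower with the floor, and the median was 0.11 with centring. For the spindle, kinetochore and cytokinesis 1 was higher with the filter, with the floor and by the t-test, from 1 to 2 without 1 replicate, and 0 were lower without the block, with centring, without the trend and with probe sets averaged. The cause of these shifts was not tested.

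Of 340 member fold changes under alternatives, 26 turned sign, in 17 members, all with adjusted p above 0.05. With quantile normalization CCND1 stood at 0.026, and with centring CCND1 and CDC25A at 0.071 and 0.047. With probe sets averaged, CDK6, CCNE2, CDC25A, MCM4, MCM5, RRM1, MKI67 and AURKB stood at −0.22, 0.038, 0.026, −0.097, −0.29, −0.25, −0.20 and 0.31. Without 1 replicate, values ran from −0.27 to 0.11 for CCND1, from −0.77 to 1.35 for CDK6, from −0.22 to 0.22 for CDC25A, from −0.046 to 0.11 for E2F3, from −0.0047 to 0.19 for CDKN1B, from −0.018 to 0.059 for CDKN2C, from −0.014 to 0.42 for CDC6, from −0.0004 to 0.34 for MCM4, from −0.016 to 0.16 for RRM1, from −0.22 to 0.49 for TOP2A, from −0.042 to 0.18 for CCNB1, from −0.12 to 0.20 for CDK1 and from −0.090 to 0.34 for AURKA. For members with log2 signals near or under 5, noise limits what can be said.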
